A study of Rattus norvegicus with 20 samples.

Results

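The genes described here are the core of the NRF2 antioxidant pathway in rat liver. They are the transcription factor gene Nfe2l2 (which encodes NRF2), its inhibitor Keap1, and the target genes Nqo1, Ephx1, Txnrd1, Gsr, Gclc, Gclm and Srxn1. Rows were matched by gene name, with the row of highest mean taken where a name repeated. Of the 9 names, 8 had a row among the 32883 rows read, and all 8 passed the filter on low values that left 11867 genes to test. No row was named Srxn1. A row named AABR07054319.1 is described in the table as sulfiredoxin 1, the enzyme that Srxn1 encodes and that restores over-oxidised peroxiredoxins, and its values are given as a description.

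The series holds 20 liver RNA libraries, 1 from each of 20 male rats, with 5 rats in each of 4 groups. The KYDS+BGZ_L group received hydrocortisone at 25 mg/kg together with BGZ_L powder at 0.9 g/kg, the KYDS group received hydrocortisone at 25 mg/kg alone, the BGZ_L group received the powder at 0.9 g/kg alone, and the CON group received the vehicle, 0.5% sodium carboxymethylcellulose. The series title ties the powder to Psoraleae Fructus, a dried fruit used in Chinese medicine, and KYDS to kidney-yang deficiency syndrome, which the KYDS group models with hydrocortisone, a glucocorticoid. The sources used here do not give strain, age, route or length of treatment, and every library comes from liver tissue. Levels are in scaled TPM, which are the deposited TPM, a transcript abundance corrected for length, after scaling between libraries. All differences are on the log2 scale of scaled TPM plus 0.5, and adjusted p-values are from limma with Benjamini-Hochberg adjustment over the 11867 genes, called at 0.05. The error beside a difference is its SE. Replicates are separate rats per the labels. The limma p-values set a difference between group means against the spread between livers within the groups.

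NRF2 is a transcription factor that is held at a low level when KEAP1 presents it to a ubiquitin ligase for degradation. Oxidants and electrophiles modify KEAP1, NRF2 then accumulates, pairs with small MAF proteins and binds antioxidant response elements in the DNA near its target genes. In liver, those targets detoxify quinones and epoxides, make glutathione and keep thioredoxin and glutathione reduced. NRF2 is controlled mainly at the level of the protein, which was not measured here.

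The antioxidant response element has the core TGACNNNGC, in which N is any base, and promoters of the members were searched for it on both strands, since it is the sequence through which NRF2 acts. RefSeq promoters of the rat build GRCr8, each covering 250 bases before and 50 bases after a gene's start, were found for 7 of the 8 measured members, the exception being Gsr. Matches occurred in 4 of those 7 genes, or in 4 of their 9 promoter windows, and 12.1% of all 33469 RefSeq promoter windows had a match. Each match is printed with 15 bases on either side where the window allows, on the strand of the gene, with the 9 bases of the core in capitals. In Gclm, Txnrd1 and Ephx1 the capitals are the reverse complement of the core.
Gclm, chr2:213031948-213031986, plus strand: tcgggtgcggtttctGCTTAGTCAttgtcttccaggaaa
Txnrd1, chr7:22755959-22755997, minus strand: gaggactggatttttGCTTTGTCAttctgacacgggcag
Ephx1, chr13:95263151-95263189, minus strand: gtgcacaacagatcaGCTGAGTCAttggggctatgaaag
Nfe2l2, chr3:81028950-81028976, minus strand: gctccgactagccatTGACGCCGCctc
The core lies 172 bases before the start of Gclm, 78 bases before a start of Txnrd1 and 57 bases before a start of Ephx1. In Nfe2l2 it begins at base 39 after the start, and it is the same core read directly. The windows of Nqo1, Gclc and Keap1 do not hold these letters, and sequence outside the windows was not searched. The core of the palindromic glucocorticoid response element, ACANNNTGT, was searched on both strands too, and no member's window held it, against 6.86% of all promoters. A match is a string of letters, and binding was not measured.

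Mitochondrially encoded genes took between 19.2% and 90.1% of the TPM in a library, with means of 48.9% in KYDS+BGZ_L, 42.4% in KYDS, 67.3% in BGZ_L and 75.1% in CON. KYDS against CON differed by an exact permutation p of 0.0238, which became 0.159 after adjustment over 40 such tests. The summed level of 6 hepatocyte markers (Alb, Ttr, Apoa1, Serpina1, Tf and Fgb) was 9111 to 45080 scaled TPM in KYDS+BGZ_L, 6275 to 63750 in KYDS, 5222 to 6140 in BGZ_L and 5110 to 9313 in CON. In bulk liver, fewer cells of a type and less RNA per cell cannot be told apart. Of these 6 markers, 4 were higher in KYDS+BGZ_L than in BGZ_L, 3 were higher in KYDS+BGZ_L than in CON and 2 were higher in KYDS than in CON. Kupffer cell markers summed to at most 393 scaled TPM in any library, stellate cell markers to 66.3, endothelial markers to 56.9 and bile duct markers to 38.1. Lymphocyte markers summed to at most 2.15, with Cd3e listed at 0 in 11 libraries. Erythroid markers summed to 427 to 4523. The 6 Kupffer cell markers summed to 38.6 to 128 in KYDS+BGZ_L, 53.9 to 108 in KYDS, 31.2 to 393 in BGZ_L and 31.9 to 53.8 in CON. KYDS and CON did not overlap in this sum (exact permutation p = 0.00794, adjusted p = 0.159), and all 6 markers were above 0 in that comparison. Between KYDS+BGZ_L and BGZ_L, 2 of the 6 were above 0, with a median log2 fold change of -0.16. Of these 2, Cd163 was the non-hepatocyte marker that passed, higher in KYDS+BGZ_L against BGZ_L, KYDS against CON and KYDS+BGZ_L against CON. Of 6 stellate cell markers, 0 were above 0 in KYDS against CON, with a median log2 fold change of -0.64. The same held in KYDS+BGZ_L against BGZ_L, with a median of -0.66, and none of these markers passed. Their sum in KYDS+BGZ_L against BGZ_L gave an exact permutation p of 0.0476 (adjusted p = 0.238). The part of these differences in the members' results was not tested.

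Nqo1 (ENSRNOG00000012772) was higher in KYDS+BGZ_L livers than in each of the other 3 groups. NQO1 reduces quinones by a transfer that avoids reactive semiquinones, and the gene is a standard readout of NRF2. Its level was 16.8, 4.16, 5.13, 9.81 and 2.68 scaled TPM in KYDS+BGZ_L libraries 1 to 5, against 1.04, 1.01, 0.318, 0.412 and 0.998 in KYDS libraries 1 to 5. All 5 KYDS+BGZ_L livers were above all 5 KYDS livers, with 2.68 as the lowest KYDS+BGZ_L value and 1.04 as the highest KYDS value. In BGZ_L libraries 1 to 5 it was 1.34, 0.998, 2.92, 2.14 and 4.71, against 0.530, 0.951, 0.550, 0.641 and 2.29 in CON libraries 1 to 5. The BGZ_L and CON ranges overlapped, with 1 CON liver at 2.29 and the remaining 4 below 1.

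**Figure D1:**
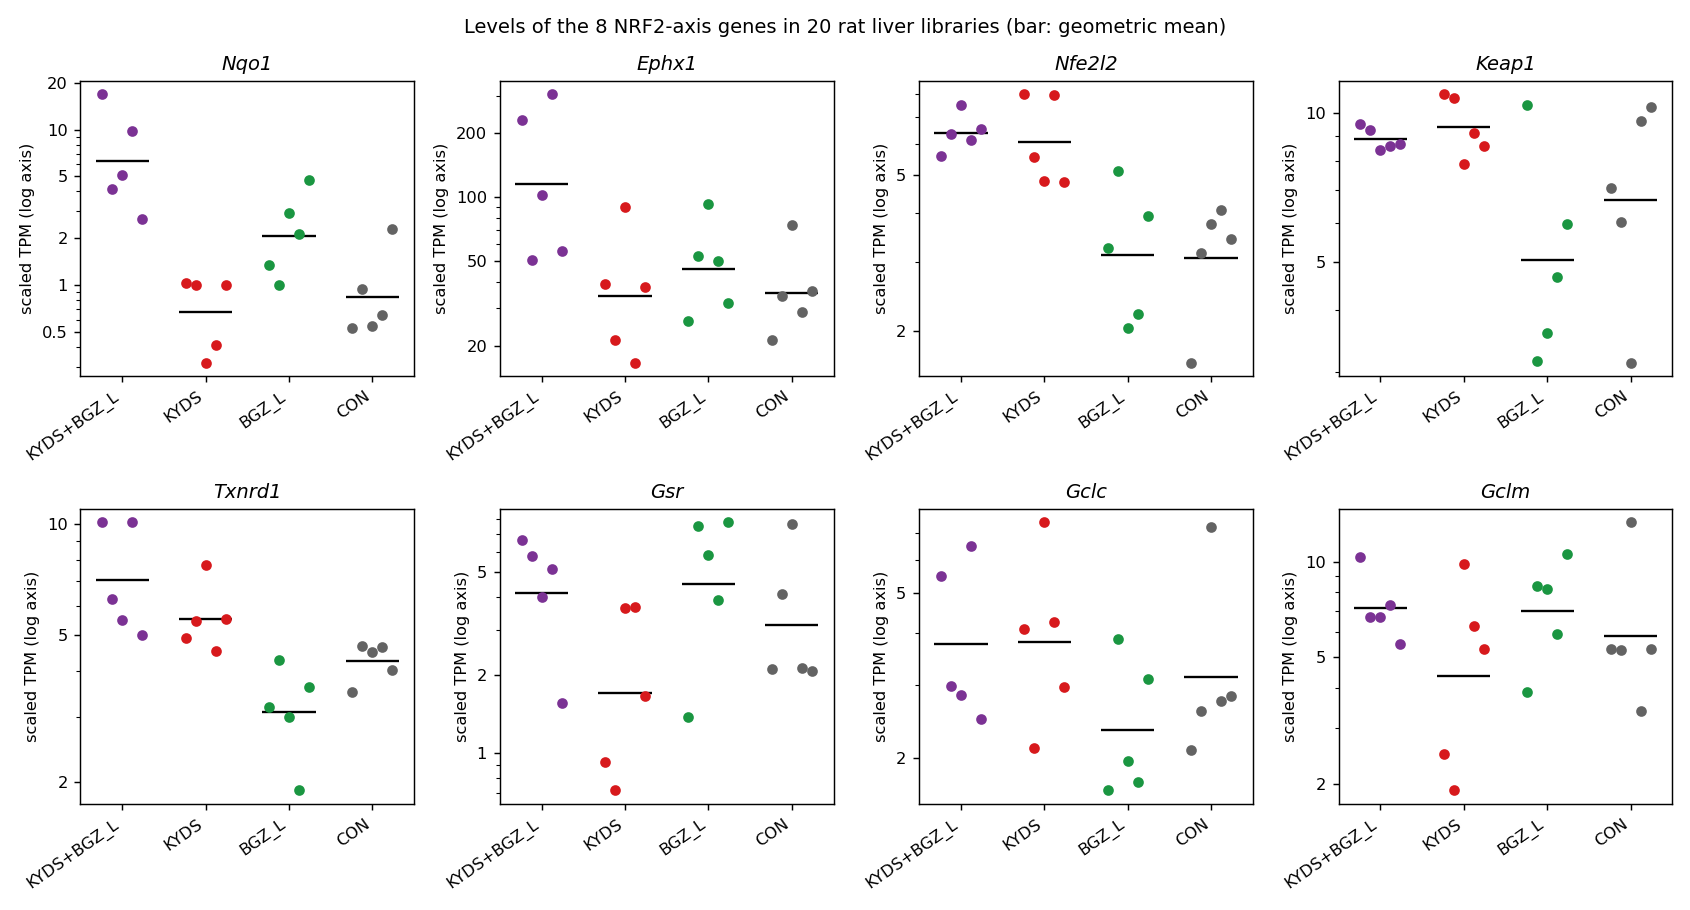
Level of each measured member in each of the 20 livers, in scaled TPM on a log axis, by group, with a bar at the geometric mean of 5. Nqo1 in KYDS+BGZ_L, at 2.68 to 16.8, does not overlap KYDS, at 0.318 to 1.04, and Nfe2l2 is at or above 4.78 in both hydrocortisone groups, where BGZ_L reaches 5.10 and CON 4.07.

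Nqo1 was 5.65-fold higher in KYDS+BGZ_L than in KYDS (log2 fold change 2.50 ± 0.43, SE; 95% interval 1.61 to 3.39; limma adjusted p = 0.017). It was 1 of the 8 members called in this comparison, in which 0.126% of all genes tested were called (15 genes, of which 7 were higher, 0.059%, and 8 lower, 0.0674%). Of all genes, 0.388% were higher without overlap between these groups. Against CON the KYDS+BGZ_L level was 4.96-fold higher (2.31 ± 0.43; adjusted p = 0.00379), with no overlap, in a comparison where 5.79% of genes were called higher and 5.7% lower, and where 5.44% were higher without overlap. Against BGZ_L it was 2.58-fold higher (1.37 ± 0.43; adjusted p = 0.0325), with overlap, in a comparison where 8.81% of genes were called higher and 8.55% lower. In BGZ_L against CON the log2 fold change was 0.94 ± 0.43 with a 95% interval of 0.05 to 1.83, an unadjusted p of 0.039 and an adjusted p of 0.813. No member was higher in BGZ_L than in CON without overlap, against 0.278% of all genes. KYDS against CON gave -0.19 ± 0.43 (adjusted p = 0.822).

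KYDS+BGZ_L libraries 1 and 4 carried the highest Nqo1 values, and leaving out either ended the call against KYDS. Leaving out library 1 gave 2.15 with an adjusted p of 0.0579, and leaving out library 4 gave an adjusted p of 0.077. With both left out, the log2 fold change against KYDS was 1.83 (adjusted p = 0.275), that against CON 1.64 (0.0726) and that against BGZ_L 0.72 (0.331). The call against BGZ_L was also lost without library 1 (0.105) or 4 (0.0915) of KYDS+BGZ_L or library 1 (0.0579), 2 (0.0837) or 4 (0.0576) of BGZ_L. KYDS+BGZ_L livers 1 and 4 also had the highest hepatocyte marker sums of their group, 40440 in library 1 and 45080 in library 4. The lowest Nqo1 level of all 20 livers, 0.318, was in KYDS library 3, which had the lowest mitochondrial share, 19.2%, and the highest hepatocyte marker sum, 63750. Without scaling between libraries the difference between KYDS+BGZ_L and KYDS was 2.31 (adjusted p = 0.102), and with TPM recomputed over nuclear genes it was 2.66 (0.108). With the nuclear to mitochondrial ratio of each library in the model it was 2.54 (adjusted p = 0.0122), and the difference from CON was then 2.15 (0.0658).

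Ephx1 (ENSRNOG00000003515) encodes microsomal epoxide hydrolase, which turns reactive epoxides into diols. Its level was 232, 50.4, 102, 305 and 55.8 scaled TPM in KYDS+BGZ_L libraries 1 to 5, against 38.8, 21.3, 89.6, 16.6 and 37.8 in KYDS. Libraries 1 and 4 were again the highest of KYDS+BGZ_L, and the groups overlapped. The level was 26.2, 52.6, 92.4, 50.1 and 31.7 in BGZ_L, against 21.2, 34.2, 73.6, 28.7 and 36.3 in CON. Ephx1 was 3.22-fold higher in KYDS+BGZ_L than in CON (1.69 ± 0.53; 95% interval 0.59 to 2.79; adjusted p = 0.0433). Against KYDS the log2 fold change was 1.74 ± 0.53, with an interval of 0.64 to 2.84 and an adjusted p of 0.509. Against BGZ_L it was 1.32 ± 0.53 (adjusted p = 0.0877). The call against CON held in 10 of 20 fits that each left out 1 library. It was lost without libraries 1, 3 or 4 of KYDS+BGZ_L, 1 or 5 of KYDS, 4 of BGZ_L, and 1, 2, 4 or 5 of CON, with an adjusted p of 0.0504 to 0.139, and without both libraries 1 and 4 of KYDS+BGZ_L it was 0.89 (adjusted p = 0.47). The call also ended with the nuclear to mitochondrial ratio in the model (1.16; adjusted p = 0.51), over nuclear genes (1.52; 0.184), without the filter (0.0779) and without the 2 libraries of lowest scaling factor (0.0767).

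Nfe2l2 (ENSRNOG00000001548) was higher in livers of hydrocortisone-treated rats, with or without BGZ_L. Its level was 5.59, 6.33, 7.52, 6.14 and 6.52 scaled TPM in KYDS+BGZ_L libraries 1 to 5, against 3.26, 5.10, 2.03, 2.21 and 3.92 in BGZ_L. It was 8.0, 5.54, 4.83, 7.98 and 4.78 in KYDS, against 1.66, 3.15, 3.75, 4.07 and 3.42 in CON. In each of these pairs every hydrocortisone-treated liver was above every liver without it. Nfe2l2 was 1.90-fold higher in KYDS+BGZ_L than in BGZ_L (0.92 ± 0.25; adjusted p = 0.0171) and 1.83-fold higher in KYDS than in CON (0.87 ± 0.25; adjusted p = 0.0467). The 2 comparisons share no library. Their backgrounds were 17.4% of genes called between KYDS+BGZ_L and BGZ_L, and 6.27% between KYDS and CON, where 3.25% were higher and 3.02% lower. Genes higher without overlap made up 7.2% between KYDS+BGZ_L and BGZ_L and 3.32% between KYDS and CON. KYDS+BGZ_L against CON gave 0.94 ± 0.25 (adjusted p = 0.0229), a comparison in which 11.5% of genes were called and 3 of the 8 members were higher.

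Adding BGZ_L gave no Nfe2l2 difference beyond its spread. The difference was 0.07 ± 0.25 between KYDS+BGZ_L and KYDS, with a 95% interval of -0.45 to 0.59, and 0.017 ± 0.25 between BGZ_L and CON. The call in KYDS against CON held in 5 of 20 fits with 1 library left out (without library 4 of CON or 1, 2, 3 or 4 of BGZ_L), and each other library left out gave an adjusted p of 0.0524 to 0.11. In KYDS+BGZ_L against BGZ_L it held in 19 of 20 (0.0524 without BGZ_L library 3). In KYDS+BGZ_L against CON it was lost without KYDS+BGZ_L library 1 (0.0515) or library 4 (0.0592). Hepatocyte markers were higher, and mitochondrial shares lower, on average in the same hydrocortisone groups, and with the nuclear to mitochondrial ratio in the model the Nfe2l2 difference between KYDS+BGZ_L and BGZ_L was 1.06 (adjusted p = 0.027), that between KYDS+BGZ_L and CON 1.14 (0.0914) and that between KYDS and CON 1.11 (0.237).

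Keap1 (ENSRNOG00000020878) encodes the adaptor that hands NRF2 to its ubiquitin ligase, and it passed in no comparison. Its level was 9.49, 9.23, 8.43, 8.56 and 8.66 scaled TPM in KYDS+BGZ_L, 10.9, 10.7, 7.87, 9.10 and 8.57 in KYDS, 10.4, 3.15, 3.59, 4.67 and 5.97 in BGZ_L, and 7.07, 6.01, 3.13, 9.62 and 10.3 in CON. The hydrocortisone groups were tight, and the groups without it were spread over a wide range that overlapped them. KYDS+BGZ_L against BGZ_L gave 0.74 ± 0.29 (adjusted p = 0.0837) and KYDS against CON gave 0.45 (adjusted p = 0.359). Without scaling, the Keap1 difference passed in both, at 1.5 in KYDS+BGZ_L against BGZ_L and 1.70 in KYDS against CON, where the median of all genes was then 0.63 in the first comparison and 1.03 in the second.

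Txnrd1 (ENSRNOG00000009088) encodes cytosolic thioredoxin reductase, which keeps thioredoxin reduced with NADPH. Its level was 10.1, 6.26, 5.49, 10.1 and 5.00 scaled TPM in KYDS+BGZ_L libraries 1 to 5, against 3.20, 4.28, 3.01, 1.90 and 3.62 in BGZ_L. Every KYDS+BGZ_L liver was above every BGZ_L liver, and Txnrd1 was 2.10-fold higher there (1.07 ± 0.23; 95% interval 0.58 to 1.55; adjusted p = 0.00551). The level was 4.90, 5.44, 7.71, 4.54 and 5.53 in KYDS, against 3.50, 4.67, 4.51, 4.65 and 4.02 in CON, and these ranges overlapped (0.35, adjusted p = 0.375). KYDS+BGZ_L against CON did not overlap, and its difference of 0.68 ± 0.23 missed the threshold (adjusted p = 0.0621). KYDS+BGZ_L against KYDS gave 0.33 ± 0.23. The Txnrd1 call against BGZ_L held in all 20 fits with 1 library left out, at an adjusted p of at most 0.0227, and was 0.74 (0.106) without KYDS+BGZ_L libraries 1 and 4.

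In KYDS+BGZ_L against BGZ_L, 3 of the 8 members were called, Txnrd1, Nfe2l2 and Nqo1, all of them higher, where 17.4% of all genes were called and 8.81% were higher. In BGZ_L against CON, 0% of the 11867 genes and none of the 8 members passed in limma, while 714 genes and 1 member had an unadjusted p under 0.05. Ephx1 passed only in KYDS+BGZ_L against CON, and Keap1, Gsr, Gclc and Gclm passed in none of the 5 comparisons.

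**Figure D2:**
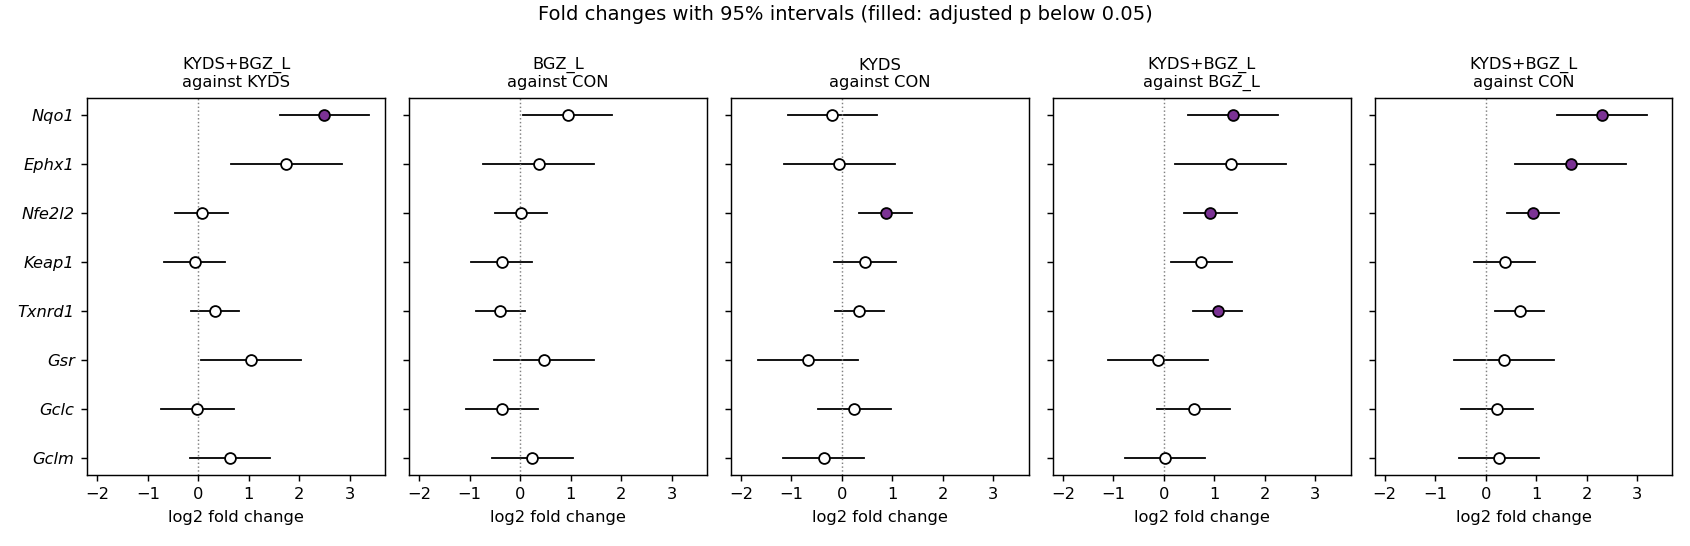
Log2 fold change of each member with its 95% interval in 5 comparisons, with the first-named group over the second, and filled points where the limma adjusted p was under 0.05. Nqo1 reached 2.50 in KYDS+BGZ_L against KYDS, and Nfe2l2 lay between 0.87 and 0.94 in the 3 comparisons where hydrocortisone-treated livers were set against livers without it.

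The remaining members make and recycle glutathione. Gsr (ENSRNOG00000014915) encodes glutathione reductase, which returns oxidised glutathione to its reduced form. Its level was 6.66, 5.76, 4.0, 5.16 and 1.56 scaled TPM in KYDS+BGZ_L, against 0.920, 0.716, 3.65, 3.66 and 1.66 in KYDS. Library 5 of KYDS+BGZ_L lay inside the KYDS range and the other 4 were above it, with a log2 difference of 1.04 ± 0.47, an unadjusted p of 0.0403 and an adjusted p of 1. Gsr was 1.38 to 7.81 in BGZ_L, against 2.07 to 7.71 in CON.

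Gclc (ENSRNOG00000006302) and Gclm (ENSRNOG00000013409) encode the catalytic and the modifier subunit of glutamate-cysteine ligase, the first and rate-limiting step of glutathione synthesis. Gclc was 5.51, 2.98, 2.84, 6.50 and 2.49 scaled TPM in KYDS+BGZ_L, 4.09, 2.11, 7.42, 4.25 and 2.96 in KYDS, 1.67, 3.87, 1.97, 1.75 and 3.11 in BGZ_L, and 2.09, 2.59, 7.22, 2.74 and 2.82 in CON. The 4 groups overlapped throughout. Gclm was 5.51 to 10.3 in KYDS+BGZ_L, 1.91 to 9.82 in KYDS, 3.90 to 10.6 in BGZ_L and 3.38 to 13.3 in CON. KYDS+BGZ_L against KYDS gave -0.02 ± 0.34 for Gclc (95% interval -0.74 to 0.70) and 0.63 ± 0.38 for Gclm (-0.16 to 1.43).

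The row described as sulfiredoxin 1 was low throughout. It had at most 1.61 scaled TPM, was listed at 0 in 2 KYDS, 1 BGZ_L and 2 CON livers, and did not pass the filter, so it was not tested. In KYDS+BGZ_L it lay between 0.0494 and 1.61.

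Measured per length of transcript, Ephx1 had the highest level of the members in every one of the 4 group means, at 149 ± 114 scaled TPM in KYDS+BGZ_L, 40.8 ± 29.0 in KYDS, 50.6 ± 26 in BGZ_L and 38.8 ± 20.3 in CON (SD, n = 5 each). Among the 8 members tested, Nqo1 was the lowest in KYDS, at 0.755 ± 0.358, and in CON, at 0.992 ± 0.745. In KYDS+BGZ_L its mean of 7.72 ± 5.75 stood beside Txnrd1 at 7.39 ± 2.51 and Gclm at 7.31 ± 1.81. These means differ by less than their SDs, and levels of different genes were not tested against each other.

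Over the 8 members, the median log2 fold change was 0.83 in KYDS+BGZ_L against BGZ_L and 0.53 in KYDS+BGZ_L against CON. It was 0.48 in KYDS+BGZ_L against KYDS, 0.13 in BGZ_L against CON and 0.10 in KYDS against CON. Medians over all 11867 genes lay between -0.020 and 0.060 in these comparisons. The test of whether the response to BGZ_L differed with hydrocortisone called none of the 8 members, against 0.0253% of all genes. Its Nqo1 term was 1.56 ± 0.60 (unadjusted p = 0.0176, adjusted p = 0.999), so a difference between the 2 responses was not established for Nqo1.

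Pairs of members were also compared as ratios within a library, which depend little on scaling. The mean log2 ratio of Txnrd1 to Gsr was 0.68 ± 0.50 in KYDS+BGZ_L, against -0.50 ± 0.83 in BGZ_L, and 1.39 ± 0.79 in KYDS, against 0.37 ± 0.68 in CON (SD, n = 5 each). The difference between KYDS+BGZ_L and BGZ_L was 1.18 with an exact permutation p of 0.0397, adjusted to 0.179 over 15 tests. The ratio of Gclc to Gclm was -1.40 ± 0.36 in BGZ_L, against -0.79 ± 0.33 in CON, with an exact permutation p of 0.0317 that was also 0.179 after adjustment. None of the 15 ratio comparisons passed, and the smallest p that 5 against 5 libraries allow is 0.00794.

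**Figure D3:**
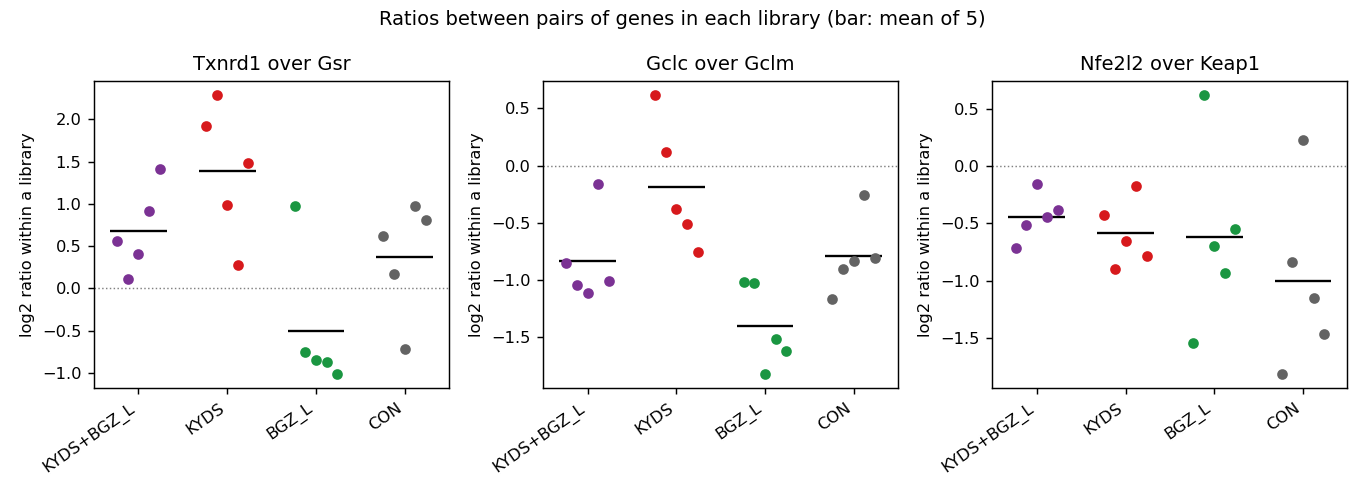
Log2 ratio of Txnrd1 to Gsr, Gclc to Gclm and Nfe2l2 to Keap1 within each of the 20 livers, by group, with a bar at the mean of 5. The mean Txnrd1 to Gsr ratio is 1.39 in KYDS and -0.50 in BGZ_L, and within each of the 5 pairs of groups tested no ratio passed after adjustment.

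Among themselves the members fell into different patterns. After each group was centred on its mean, Gclm and Gsr had a Pearson correlation of 0.87 over the 20 libraries, Gclc and Gclm 0.76, Gclc and Gsr 0.74, and Gclc and Ephx1 0.70. Keap1 ran opposite to Gsr at -0.68 and to Gclm at -0.65. Nqo1 was correlated with Ephx1 at 0.37 within groups and 0.69 over all 20 uncentred libraries. Within groups, Nfe2l2 had a correlation of -0.13 with Nqo1. These are descriptions, since the 20 points share library preparation and scaling.

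**Figure D4:**
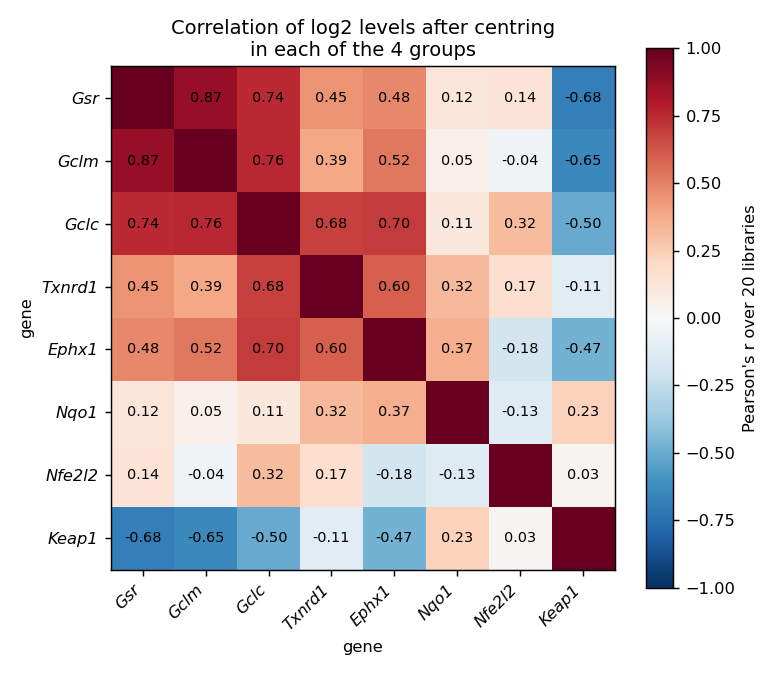
Pearson correlation of log2 levels between members over 20 libraries, after centring each of the 4 groups on its mean, in red where positive and blue where negative. Gsr, Gclm and Gclc form a block at 0.74 to 0.87, and Nqo1 and Nfe2l2 are at -0.13.

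Of the 6703 genes compared, those most like Nqo1 over the 20 libraries were Gsta3, with a Pearson correlation of 0.842, Adrm1 at 0.804, Cyp1a1 at 0.795 and Cavin3 at 0.779. Among the genes most like Gclc were Jak1 at 0.870, Serinc3 at 0.850 and Bbox1 at 0.843. Tnfaip8l1 at 0.860, Rad51d at 0.855, Clpx at 0.847 and Mapk9 at 0.841 were most like Nfe2l2. Levels were not centred by group here, so differences between group means enter these correlations. They are descriptions of the genes picked as most alike. Gsta3 encodes a glutathione transferase and Cyp1a1 a cytochrome P450 that oxidises aromatic compounds.

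Beyond the members, 50 genes of 4 related lists were tested, covering NRF2 regulators, glutathione and thioredoxin genes, NADPH-producing enzymes and other NRF2-inducible genes. Between KYDS+BGZ_L and KYDS, 1 was higher and 0 lower, with a median log2 fold change of 0.51, where 0.059% of all genes were higher and 0.0674% lower. In BGZ_L against CON none passed, with a median of 0.20, and 0% of all genes did. In KYDS against CON, 0 were higher and 1 lower, with a median of 0.15, where 3.25% of all genes were higher and 3.02% lower. Between KYDS+BGZ_L and BGZ_L, 11 were higher and 1 lower, with a median of 0.43, where 8.81% of all genes were higher and 8.55% lower. KYDS+BGZ_L against CON had 12 higher and 1 lower, with a median of 0.70, where 5.79% of all genes were higher and 5.7% lower.

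Blvrb, which encodes a biliverdin reductase that also reduces flavins, was the 1 of these 50 genes that was higher in KYDS+BGZ_L than in KYDS. Its level was 85.9, 60.1, 73.2, 115 and 75.7 scaled TPM in KYDS+BGZ_L, against 30.0, 28.7, 48.3, 25.7 and 46.0 in KYDS. The groups did not overlap (1.20 ± 0.23; adjusted p = 0.0417). The call held in 7 of 20 fits that each left out 1 library. It was lost without libraries 1, 3, 4 or 5 of KYDS+BGZ_L, 1, 2 or 4 of KYDS, any of BGZ_L and 1 of CON, with an adjusted p of 0.0512 to 0.156, and without scaling it was 0.77 (0.716). Hmox1, which encodes a haem oxygenase and is a common NRF2 target, passed in no comparison. Its log2 fold changes in KYDS+BGZ_L were -0.06 against KYDS and -0.08 against CON. The Hmox1 level was 3.72, 3.74, 2.09, 4.66 and 2.38 scaled TPM in KYDS+BGZ_L, against 1.44, 18.1, 8.75, 2.83 and 7.82 in BGZ_L.

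The following counts are for KYDS+BGZ_L against BGZ_L, where 8.81% of all genes were higher. Among NRF2 regulators, 2 of 10 were higher and 1 lower. Cul3, the scaffold of the ligase that KEAP1 serves, was higher by 1.14, and Sqstm1, an autophagy receptor that binds KEAP1, by 0.87. Maff, a small MAF partner, was lower (log2 fold change -0.98), and Maff was also lower in KYDS than in CON (-0.91; adjusted p = 0.0467). In glutathione and thioredoxin genes, 2 of 18 were higher, Txn1, encoding thioredoxin, by 1.23 and Gpx4, which reduces lipid peroxides, by 0.98, a count near the share among all genes. Of 5 NADPH-producing enzymes 3 were higher, the pentose phosphate enzymes Tkt by 1.16 and Taldo1 by 1.06, and malic enzyme Me1 by 1.14. In the remaining list 4 of 17 were higher, namely Ugt1a6 by 2.49, Akr7a3, an aldehyde reductase, by 2.12, Osgin1 by 2.11 and Blvrb by 0.68. Rat Ugt1a6 shares exons with other Ugt1a genes, so its value is uncertain.

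KYDS+BGZ_L against CON had higher Akr7a3 (2.82; adjusted p = 0.00284), Ugt1a6 (2.08), Aldh1a1 (1.68) and Abcc2 (1.62), and also higher Txn1 (1.39; adjusted p = 0.0093), Txnrd2 (0.94), Taldo1 (1.31), Idh1 (1.25) and Tkt (0.93). Cul3 (0.96), Sqstm1 (0.75) and Blvrb (0.97) were higher there as well, and Maff was lower (-1.06). These 2 comparisons share the KYDS+BGZ_L libraries, and their calls are not independent. Of all 27 calls made on these lists, 2 were kept without KYDS+BGZ_L libraries 1 and 4. All 27 were kept with a constant of 1 or a filter at 1. Over nuclear genes 4 were kept, and with the nuclear to mitochondrial ratio in the model 5. Without the 2 libraries of lowest scaling factor, 16 were kept. With 1 library left out, the calls against CON held in 5 of 20 fits for Cul3, 7 for Sqstm1 and 8 for Txnrd2. Those of Akr7a3, Txn1 and Taldo1 against CON held in all 20. That of Blvrb against BGZ_L held in 6.

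**Figure D5:**
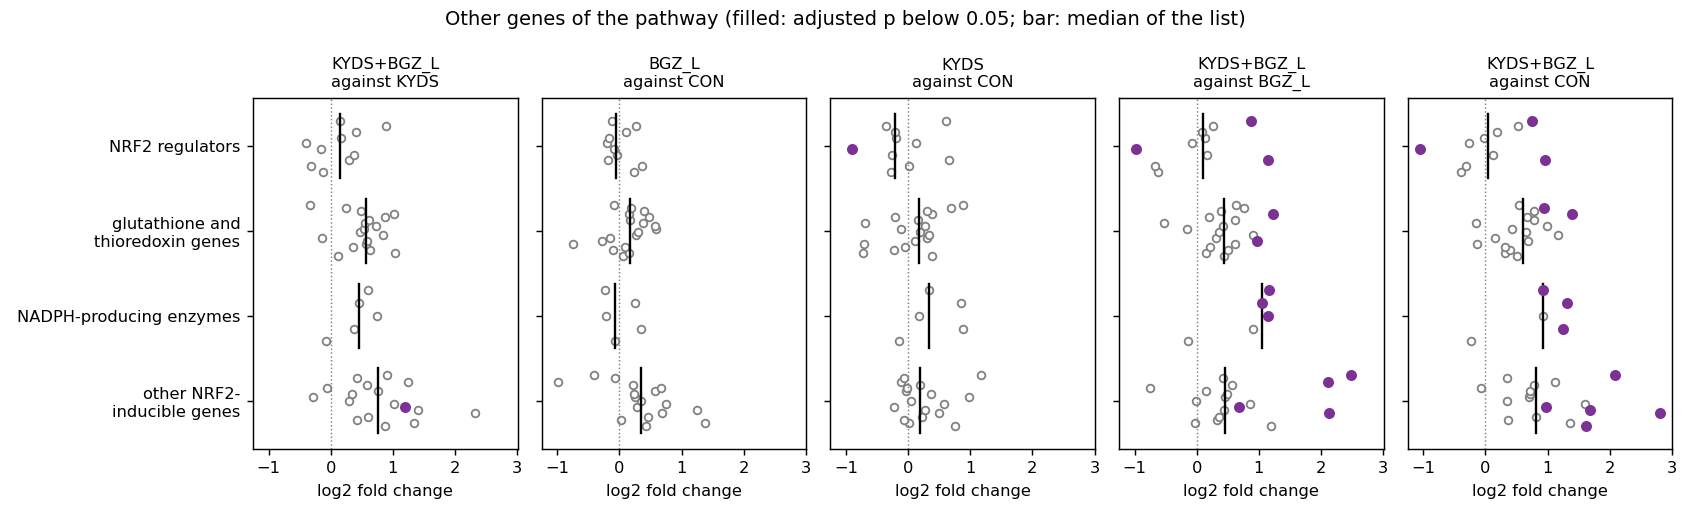
Log2 fold change of the 50 tested genes of 4 related lists in 5 comparisons, with filled points where the limma adjusted p was under 0.05 and a bar at the median of each list. The filled points are on the right of 0 except for Maff, and 11 higher genes are in KYDS+BGZ_L against BGZ_L, where 1 is lower.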

How the data were processed

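The authors deposited 1 table whose name says raw counts. Its values have 2 decimals and sum to 914241 to 983958 in a library, so they were read as TPM as deposited, a reading inferred from the values, and how the authors computed the TPM is not stated. Per the labels, RNA was extracted with Trizol, cleared of DNA and prepared with a TruSeq kit, and only read 1 of each pair was analysed. Neither aligner nor counter is named in the sources used here. In addition, the submitters' processing notes list the mouse builds GRCm38, mm10 and GRCm39, while gene identifiers in the table are rat, so the build behind the values is not known. TPM keeps no depth, so depth is unknown and no interval that needs it was computed, and the count test planned for whole numbers could not be used.

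Rows without a symbol, 33 in number, were dropped. Values were scaled by an unweighted trimmed mean of log ratios (30% of ratios and 5% of levels trimmed), genes reaching 0.5 scaled TPM in 5 or more libraries were kept (11867), and log2 of the value plus 0.5 was fitted with limma 3.58.1 in R 4.3.3, with 4 group means, a trended robust prior and 16 residual degrees of freedom. Such a constant understates changes of low genes. Tests were two-sided, with Benjamini-Hochberg adjustment at 0.05. Ratios and library measures used exact permutation tests. Members and lists were chosen with earlier results of these data known. Named genes were all members, up to 4 genes per direction per list that passed, and the 4 genes most correlated with each of Nqo1, Gclc and Nfe2l2, of which 1 is not reported here. Alternatives were scalings, constants, filters, a nuclear to mitochondrial covariate, a replicate block and libraries left out. Leaving out KYDS+BGZ_L libraries 1 and 4 together was chosen after seeing the data. Promoters came from RefSeq.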

Additional observations from a re-analysis of the deposited data

Results flagged for a closer look

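In 32 sets of 5 livers, 8 members in 4 groups, each set was checked for a liver whose gap to its neighbour was large against the whole range (Dixon's test at 95%). For normal values this check picks about 1 in 20 sets by chance. The levels were not put on a log scale and members share libraries, so that rate may not hold for this check. It picked 4, all in CON. Nqo1 was 2.29 scaled TPM in CON library 5, where the other 4 lay between 0.530 and 0.951. Gclc was 7.22, Gclm was 13.3 and Ephx1 was 73.6 in CON library 3. Without CON library 3 the log2 fold change of Ephx1 in KYDS against CON was 0.21, against -0.05 with it, and neither passed. In KYDS+BGZ_L against CON, Ephx1 was 1.95 without CON library 3 (limma adjusted p = 0.0374). Without CON library 5, that of Nqo1 in KYDS+BGZ_L against CON was 2.58 (limma adjusted p = 0.00237), and that of Ephx1 in KYDS+BGZ_L against CON was 1.70 (adjusted p = 0.0628).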

How the results depend on the processing

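The 8 member calls kept their direction under all alternatives run, but not their side of the threshold. All 8 were kept with a constant of 0.1 or 1 and a filter at 1, 7 with median-ratio scaling and 7 without scaling, 5 without a filter, 4 without the 2 libraries of lowest scaling factor (CON 2 and BGZ_L 3), 3 with each library's nuclear to mitochondrial ratio added as covariate, 1 with TPM recomputed over nuclear genes and 0 without KYDS+BGZ_L libraries 1 and 4. Same-numbered livers correlated above 0.1 in 7 of 30 pairs, over a range of -0.46 to 0.33. The labels do not say whether numbers pair the samples, and this count cannot decide it. With the replicate block 7 of 8 calls were kept and KYDS against CON had 0 members called. KYDS against CON had 744 genes and 1 member called, against 5932 and 4 without scaling, 92 and 0 over nuclear genes, 367 and 0 without a filter, 23 and 0 with the covariate, 257 and 0 without the 2 libraries, and 0 members with median-ratio scaling or without KYDS+BGZ_L libraries 1 and 4. Higher genes were 386 of 744 in the reported values, 5866 of the 5932 without scaling and 75 of 92 over nuclear genes. In KYDS+BGZ_L against BGZ_L they were 1045 of 2060, 1809 of 2042 without scaling and 357 of 576 over nuclear genes, and in KYDS+BGZ_L against CON 687 of 1364 and, without scaling, 1565 of 1653. Unscaled values gave an all-gene median of 1.03 in KYDS against CON, 0.63 in KYDS+BGZ_L against BGZ_L, 0.64 in KYDS+BGZ_L against CON and -0.36 in KYDS+BGZ_L against KYDS. Over nuclear genes it was -0.24 in KYDS+BGZ_L against KYDS and -0.21 in BGZ_L against CON. KYDS+BGZ_L against BGZ_L had 2060 genes and 3 members, against 5 members without scaling, 576 and 0 over nuclear genes, 669 genes with the covariate, 1362 and 1 without the 2 libraries, and 139 and 0 without libraries 1 and 4. KYDS+BGZ_L against KYDS had 15 genes and 1 member, against 4 and 0 without scaling, 6 and 0 over nuclear genes, and 6 and 0 without libraries 1 and 4. BGZ_L against CON had 0 genes, and 1 with the covariate or without the 2 libraries. KYDS+BGZ_L against CON had 1364 genes and 3 members, against 151 and 1 over nuclear genes, 877 genes without a filter, 89 and 0 with the covariate, 765 genes without the 2 libraries, and 83 and 0 without libraries 1 and 4. The interaction had 3 genes, against 0 without scaling or over nuclear genes, and 1 without the 2 libraries or without libraries 1 and 4. The cause of these differences was not tested.

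Leaving out each library in turn gave 226 to 1075 genes and 0 to 1 members in KYDS against CON, 1101 to 2517 and 2 to 4 in KYDS+BGZ_L against BGZ_L, 6 to 19 and 0 to 1 in KYDS+BGZ_L against KYDS, 0 to 3 genes in BGZ_L against CON, 385 to 1611 and 1 to 3 in KYDS+BGZ_L against CON, and 2 to 5 genes in the interaction. The log2 ratio difference ranged from -0.21 to 0.093 for Gclc over Gclm in KYDS+BGZ_L against CON and from -0.052 to 0.49 for Nfe2l2 over Keap1 in KYDS+BGZ_L against BGZ_L.

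Differences of members that had not passed changed sign as follows. Without scaling, KYDS against CON gave Nqo1 0.64, Gclm 0.84, Gsr 0.41 and Ephx1 1.29, KYDS+BGZ_L against BGZ_L gave Gsr 0.59, KYDS+BGZ_L against KYDS gave Txnrd1 -0.073 and Nfe2l2 -0.34, and the interaction gave Gclc -0.13, Gclm -0.054, Nfe2l2 -0.43 and Keap1 -0.20. Over nuclear genes, Ephx1 was 0.027 in KYDS against CON, and Nfe2l2 was -0.18 in KYDS+BGZ_L against KYDS and -0.22 in BGZ_L against CON. With median-ratio scaling, Gclm was -0.039 in KYDS+BGZ_L against BGZ_L. With the covariate, Gsr was 0.17 in KYDS+BGZ_L against BGZ_L, Gclc 0.014 in KYDS+BGZ_L against KYDS and the Nfe2l2 interaction -0.057. Without the 2 libraries, Gclc was 0.016 in KYDS+BGZ_L against KYDS and the Nfe2l2 interaction -0.055. Without libraries 1 and 4, Gclm was -0.15 in KYDS+BGZ_L against BGZ_L, Gclc was -0.17 in KYDS+BGZ_L against CON and -0.055 in the interaction. Leaving out 1 library, the ranges were -0.29 to 0.065 for Nqo1 and -0.39 to 0.21 for Ephx1 in KYDS against CON, -0.17 to 0.16 for Gclm and -0.48 to 0.18 for Gsr in KYDS+BGZ_L against BGZ_L, -0.20 to 0.20 for Gclc and -0.0094 to 0.16 for Nfe2l2 in KYDS+BGZ_L against KYDS, -0.16 to 0.15 for Nfe2l2 in BGZ_L against CON, and -0.080 to 0.26 for the Nfe2l2 interaction. Depth is unknown, so the precision of low genes such as Nqo1 cannot be given.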
